A study of Mus musculus with 6 samples.

Results

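Intergenic long noncoding RNA promoters were examined in ATAC-seq peak lists from adult mouse neural stem cell cultures. The members were GENCODE M21 genes of type lincRNA on chromosomes 1 to 19 whose every annotated start lay over 3 kb from any start of a protein-coding transcript on the GRCm38 build. This kept 4675 of 5209 lincRNA genes, with 6654 annotated transcripts, and set aside 534 genes close to a coding start. A gene was counted as occupied in a library when any part of a called peak lay within 1 kb of one of its starts. A peak in at least 1 library was found at 1194 genes (25.5% of 4675), in all 6 libraries at 571 genes (12.2%) and in none at 3481 genes (74.5%). The peaks formed 1353 merged regions, each the union of peaks that shared at least 1 base, among 116783 merged regions of the whole data set.

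The cells came from the subependymal zone of 10-week-old mice and carried on both alleles a deletion, made with CRISPR-Cas9, of the Srr2 element, which enhances transcription of the stem cell factor gene Sox2. Every library carried this deletion, including the proliferating ones, so the comparison is of state within the mutant and has no wild type arm. PROLIF libraries are labelled as proliferating cells at 2 days in vitro, kept with mitogen. The sources differ on this culture: the methods place dissociated neurosphere cells on Matrigel with FGF for 2 days, whereas the series design text names neurospheres at 3 days. Whether the states differed in substrate, culture form or total time in culture is therefore not settled here. DIFF libraries came from cells plated on Matrigel with FGF for 2 days and then kept for 1 further day without mitogens in medium with serum, at the onset of differentiation. Each state had 3 libraries, numbered 1, 2 and 4. The labels do not say which mutant strain each culture came from, and p-values measure the spread between these libraries.

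ATAC-seq marks DNA that a transposase can reach, which at active or poised genes includes the nucleosome-depleted stretch just before the transcription start. Long intergenic noncoding RNAs are transcripts without a recognised protein product that lie between coding genes. Some act in the nucleus as scaffolds or in gene silencing, some are mainly hosts of microRNAs or small nucleolar RNAs, and the role of most is unknown. Many are transcribed in few cell types, and their promoters are often poorer in CpG dinucleotides than those of coding genes. In neural stem cells, members of this class are known to take part in self-renewal and in the turn to neurogenesis.

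The 8 windows printed next show the base composition behind the results. They are 201 bases long, centred on the summit of the strongest peak near the gene, read from the RefSeq GRCm38.p6 genome and written 5′ to 3′ on the strand of the lincRNA. Capitals mark exact matches, on either strand, to any of 10 short motifs: TGACTCA for AP-1, TGACGTCA for the cyclic AMP response element, CCAAT for NF-Y, GGGCGG for SP factors, CCGGAAG for ETS factors, GCATGCGC for NRF1, TATAAA for the TATA box, CAGCTG for an E-box, TTGGCA for NFI and AACAATG for SOX factors. BC002059 (chr17:16951330-16951530, + strand) and Mir17hg (chr14:115040700-115040900, + strand) are shown as regions open in all 6 libraries. Gm49470 (chr15:87138936-87139136, + strand) and 1110002O04Rik (chr1:35879673-35879873, + strand) lost accessibility in DIFF, and Gm44934 (chr7:98735003-98735203, - strand) and Gm37591 (chr1:33214872-33215072, - strand) gained it. Gm11682 (chr11:110544661-110544861, + strand) had peaks in PROLIF only and Gm38398 (chr9:83097869-83098069, + strand) in DIFF only.
BC002059: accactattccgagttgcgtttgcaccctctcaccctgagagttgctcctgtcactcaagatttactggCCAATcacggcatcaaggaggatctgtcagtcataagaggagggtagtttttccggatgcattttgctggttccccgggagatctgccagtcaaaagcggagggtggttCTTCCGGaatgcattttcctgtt
Mir17hg: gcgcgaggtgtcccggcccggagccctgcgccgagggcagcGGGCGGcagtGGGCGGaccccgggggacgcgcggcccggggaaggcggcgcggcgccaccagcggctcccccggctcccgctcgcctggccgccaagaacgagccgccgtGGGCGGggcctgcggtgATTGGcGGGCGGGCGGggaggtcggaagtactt
Gm49470: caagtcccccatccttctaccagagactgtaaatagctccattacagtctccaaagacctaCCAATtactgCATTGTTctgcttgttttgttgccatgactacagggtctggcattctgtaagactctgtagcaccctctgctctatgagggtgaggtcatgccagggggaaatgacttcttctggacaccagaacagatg
1110002O04Rik: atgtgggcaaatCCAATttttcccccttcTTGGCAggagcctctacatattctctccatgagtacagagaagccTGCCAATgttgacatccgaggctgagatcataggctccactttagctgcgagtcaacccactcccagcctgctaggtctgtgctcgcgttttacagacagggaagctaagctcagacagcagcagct
Gm44934: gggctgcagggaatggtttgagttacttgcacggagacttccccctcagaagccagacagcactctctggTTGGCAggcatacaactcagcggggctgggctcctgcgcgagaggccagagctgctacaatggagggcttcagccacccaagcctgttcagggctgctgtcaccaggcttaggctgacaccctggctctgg
Gm37591: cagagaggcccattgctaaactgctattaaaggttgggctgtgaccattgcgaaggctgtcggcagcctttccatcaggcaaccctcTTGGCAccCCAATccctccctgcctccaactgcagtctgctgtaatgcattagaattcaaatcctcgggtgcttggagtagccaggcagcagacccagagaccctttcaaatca
Gm11682: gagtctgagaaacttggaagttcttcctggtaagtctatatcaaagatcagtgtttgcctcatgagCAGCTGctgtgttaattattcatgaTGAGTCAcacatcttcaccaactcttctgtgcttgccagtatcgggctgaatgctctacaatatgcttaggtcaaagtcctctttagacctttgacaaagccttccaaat
Gm38398: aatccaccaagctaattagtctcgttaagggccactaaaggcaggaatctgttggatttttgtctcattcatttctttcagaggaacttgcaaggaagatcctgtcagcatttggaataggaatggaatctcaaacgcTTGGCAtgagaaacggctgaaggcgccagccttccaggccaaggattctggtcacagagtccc

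The Mir17hg window held 32 CG dinucleotides and 5 SP matches, and its observed CpG number was 0.988 of that expected from its C and G content. The Gm49470 window held no CG dinucleotide. The Gm11682 window was the only one of the 8 with an AP-1 match, and the NFI motif was found in 4 of them: 1110002O04Rik, Gm44934, Gm37591 and Gm38398.

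Peak lists ranged from 60006 peaks (PROLIF 4) to 88039 peaks (DIFF 4), and the read depth behind them is not in the files. PROLIF 1, with 82741 peaks, and DIFF 4 had the longest lists. They also held 64 and 50 of the 191 lincRNA genes that had a peak in 1 library alone, so the number of occupied genes and the counts of genes open in 1 state only are also given without each of them. The culture type was checked at coding promoters of neural stem and progenitor markers: Nes, Pax6, Sox9, Fabp7, Vim and Olig2 had a peak in all 6 libraries, and Slc1a3 had one in 5. Of 5 microglial markers, P2ry12 had a peak in all 6 libraries, Tmem119 in 5, and Cx3cr1, Csf1r and Aif1 in none. Of 4 endothelial markers only Kdr had a peak in any library, and it had one in all 6. Of 3 muscle markers, 2 had a peak in some libraries and none in all 6. The part of other cells in the results was not tested.

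Intergenic lincRNA genes were occupied far less often than coding genes in every library. In PROLIF 1, 2 and 4, 947, 787 and 734 lincRNA genes had a peak, and in DIFF 1, 2 and 4 there were 844, 835 and 950. As a share of 4675 genes this was 15.7% to 20.3%, against 63.5% to 66.4% of 20722 coding genes in the same libraries. The within-library difference was -46.9 ± 0.796 percentage points (SD, n = 6), negative in 6 of 6 libraries, with p = 0.031 in a two-sided exact sign-flip permutation test, the smallest p that 6 libraries allow. Leaving out any 1 library gave -47.1 to -46.7 points. Coding genes have more annotated starts per gene at which a peak could fall, and this was not adjusted for.

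**Figure D1:**
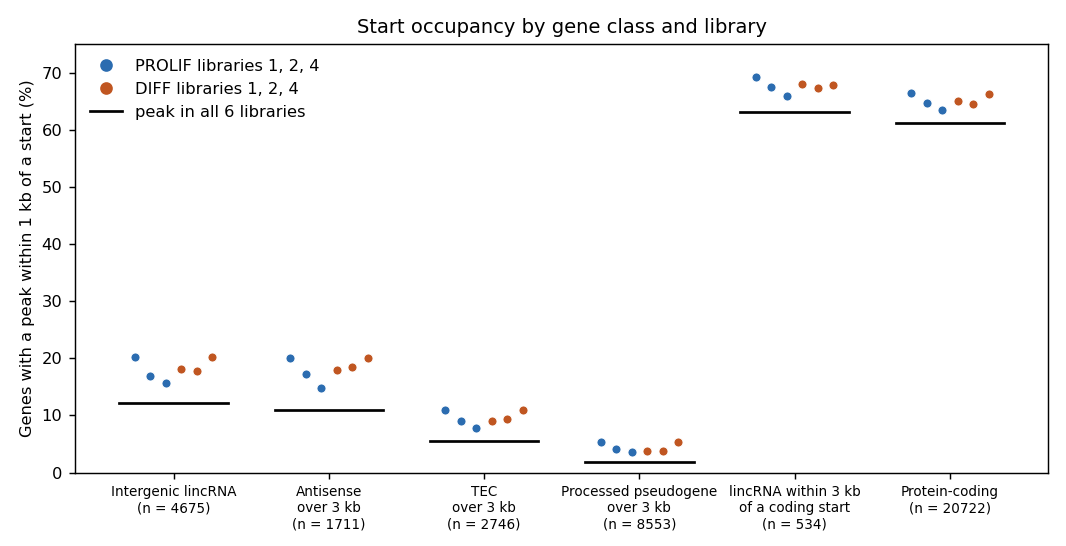
Share of genes (%, vertical axis) with a peak within 1 kb of a start, for 6 gene classes; each point is 1 library and the black line is the share with a peak in all 6 libraries. Intergenic lincRNA genes sit at 15.7% to 20.3%, next to antisense genes and far under protein-coding genes at 63.5% to 66.4%.

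The lincRNA genes set aside for a nearby coding start resembled the coding genes. Of these 534 genes, 65.9% to 69.3% had a peak per library and 63.1% had one in all 6, but a peak there can belong to the coding start. Among other noncoding classes over 3 kb from a coding start, 14.7% to 20.0% of 1711 antisense genes, 7.79% to 10.9% of 2746 genes of type TEC (to be experimentally checked) and 3.58% to 5.41% of 8553 processed pseudogenes were occupied. Among genes with a peak in any library, the peak recurred in all 6 at 47.8% of lincRNA genes and 88.2% of coding genes.

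Peaks at lincRNA starts were also weaker, narrower and less tightly placed. Strength was expressed as the percentile of the peak's −log10 p within its own list, so that 50 is the middle of that library's peaks. The median percentile of lincRNA peaks was 58.5 ± 1.31 (SD, n = 6 libraries), against 80.8 ± 2.91 at coding starts. The median width was 411 ± 30.7 bp against 757 ± 39.5 bp, and the median fold enrichment over local background was 5.998 ± 0.618 against 8.87 ± 0.867. The summit lay within 250 bp of the nearest start in 49.5 ± 1.13% of lincRNA peaks and 76.0 ± 0.984% of coding peaks, and the median distance was 255 ± 16.5 bp against 79.3 ± 2.66 bp. All of these differences had the same direction in 6 of 6 libraries (p = 0.031 each, exact sign-flip permutation test, the smallest possible). Coding genes have more annotated starts per gene, which leaves less distance to the nearest one, and this was not adjusted for. The share of summits upstream of the start was 59.3 ± 1.085% and 59.9 ± 0.804%, a difference of -0.644 ± 1.29 points (exact sign-flip p = 0.28125).

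**Figure D2:**
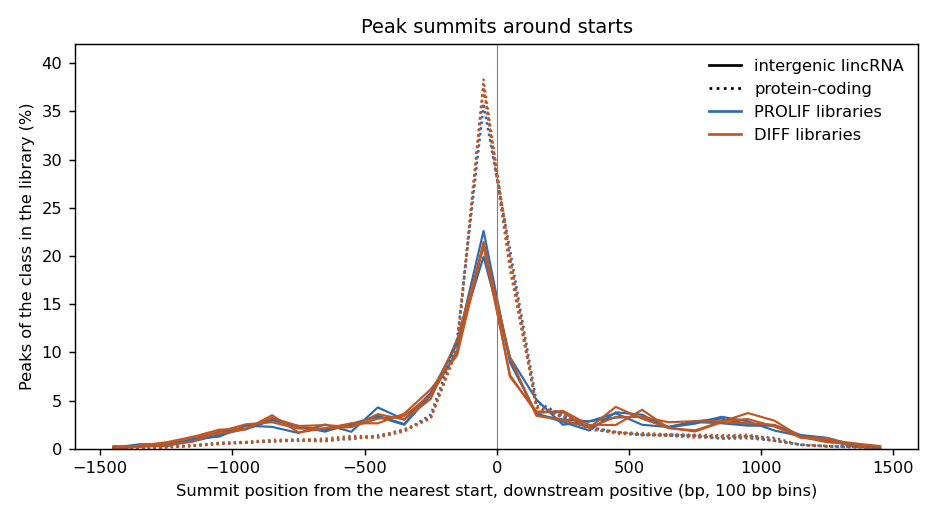
Position of peak summits relative to the nearest annotated start (bp, horizontal axis; downstream is positive) as a share of the peaks of each class per library (%, vertical axis); solid lines are intergenic lincRNA and dotted lines protein-coding, 1 line per library. Both classes peak just upstream of the start, but lincRNA peaks have broader shoulders, with a median distance of 255 bp against 79.3 bp.

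Occupancy varied with the position and annotation of the genes. It was lower farther from coding genes, a distance that the rule used only as a minimum of 3 kb. A peak in all 6 libraries was found at 17.3% of 404 genes whose start lay 3 to 10 kb from the nearest coding start, 14.1% of 1475 genes at 10 to 50 kb, 12.3% of 1693 genes at 50 to 200 kb and 7.71% of 1103 genes beyond 200 kb. Genes with 1 annotated transcript were occupied in all 6 libraries at 9.88% of 3645, those with 2 transcripts at 18.9% of 639 and those with 3 or more at 23.0% of 391, and genes with more transcripts also have more starts at which a peak could fall. By exon number the shares were 13.7% of 248 genes of 1 exon and 12.1% of 4427 genes of 2 or more. By chromosome the share ran from 6.90% of 319 genes on chromosome 8 to 20.1% of 209 genes on chromosome 17. A start of another noncoding gene or pseudogene lay within 1 kb of 194 member genes, and 27.3% of them were occupied in every library.

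CpG content went with occupancy at lincRNA starts as it did at coding starts, but at a lower level. In the stretch from 250 bp before to 50 bp after the start, the median observed over expected CpG ratio was 0.370 at the 826 lincRNA starts with a peak in all 6 libraries, 0.247 at 811 starts with a peak in 1 to 5, and 0.206 at 4774 starts with none. Coding starts with a peak in all 6 libraries had a median of 0.785. A peak in all 6 libraries was found at 5.39% of 1335 lincRNA starts with a ratio under 0.1, at 20.2% of 880 starts between 0.4 and 0.6, and at 61.3% of 160 starts at 0.8 or over. At coding starts in the same ranges the shares were 6.70%, 57.6% and 95.5%. At matched CpG content the classes were therefore close in the lowest range and far apart in the middle ranges, where 32.3% of 294 lincRNA starts and 85.8% of 9389 coding starts between 0.6 and 0.8 were occupied in all 6 libraries. Several starts of 1 gene can share a peak, coding genes have more starts per gene, and this was not adjusted for. Over 50% of the bases were soft-masked as repetitive in the reference at 16.4% of the lincRNA starts without a peak and at 4.72% of those with a peak in all 6.

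**Figure D3:**
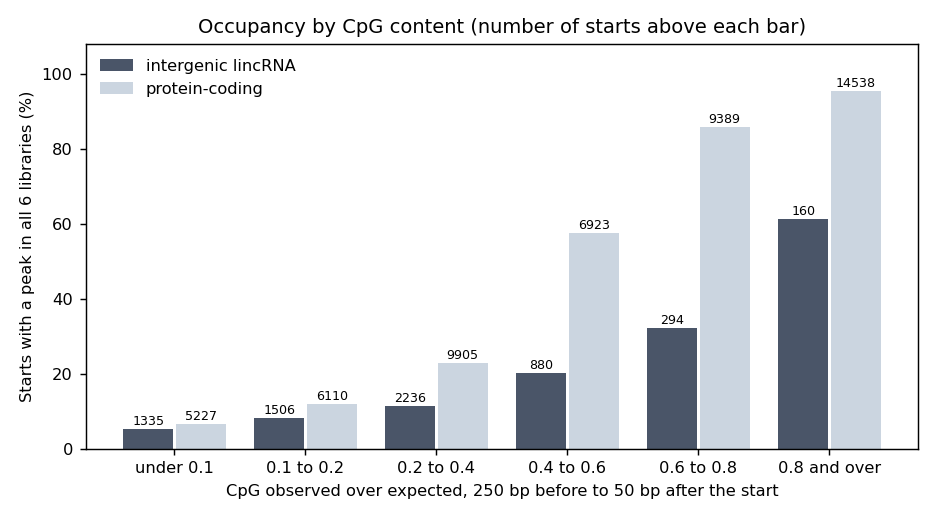
Share of annotated starts with a peak in all 6 libraries (%, bars) by the observed over expected CpG ratio around the start; the number of starts stands above each bar. Both classes rise with CpG content, from 5.39% to 61.3% at intergenic lincRNA starts and from 6.70% to 95.5% at protein-coding starts.

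The same held around the summits. The 598 lincRNA regions present in all 6 libraries had a median GC content of 53.8% within 150 bp of the summit, between the 65.1% of 12817 coding start regions and the 49.8% of 20802 distal regions over 3 kb from any annotated start. A CpG ratio of at least 0.6 was found in 24.1% of the lincRNA regions, 77.8% of the coding start regions and 4.68% of the distal regions. The SP motif was present in 28.4% of the lincRNA regions, against 68.1% of coding and 9.57% of distal regions, and in 15.1% of all 116783 regions. The ETS motif was present in 7.69%, 16.4% and 2.15%, with 3.61% over all regions. The E-box CAGCTG went the other way, with 29.4% of lincRNA, 18.3% of coding and 30.8% of distal regions.

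The strongest lincRNA peaks stood near the top of all 6 lists. The 8 genes whose weakest library still ranked highest were BC002059, Gm5165, Gm6712, Gm26901, Gm5444, Gm37494, Gm6410 and 4930519A11Rik, with percentiles of 98.7 or more in every library. BC002059 had percentiles of 99.8, 99.7 and 99.7 in PROLIF 1, 2 and 4 and 99.7 in each DIFF library, with fold enrichments between 17.6 and 21.2 and a summit at -109 bp from its start (negative is upstream). BC002059, Gm5165 and Gm6712 lie on chromosome 17 and all 3 carried an NF-Y and an ETS match near the summit, as the printed BC002059 window shows. Gm5444 on chromosome 13 (percentiles 99.4 to 99.8) had a CpG ratio of 0.217 at the summit, and Gm37494 on chromosome 7 had one of 0.841, so these strong peaks were not all CpG-rich. The symbols of several of these genes mark predicted gene models, whose functions are not established.

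LincRNAs with known roles were read by list. In the growth and p53 list, 6 of 7 members had a peak in all 6 libraries, against 12.2% of all members. Snhg6, a small nucleolar RNA host gene, had percentiles of 98.2, 99.1 and 99.1 in PROLIF 1, 2 and 4 and 98.0, 99.2 and 99.4 in DIFF 1, 2 and 4. Lockd, transcribed just downstream of the cell cycle inhibitor gene Cdkn1b, had 98.3, 95.6 and 94.6 in PROLIF and 95.3, 91.2 and 94.4 in DIFF. The states overlapped at both genes. Trp53cor1, a p53 target beside Cdkn1a, ranged from 76.4 to 86.6. Pvt1, beside the growth-promoting transcription factor gene Myc, ranged from 44.1 to 75.8. Snhg12 ran from 54.3 to 66.1 in PROLIF and from 69.7 to 80.5 in DIFF. Snhg20 ran from 5.83 in PROLIF 4 to 66.7 in DIFF 4, and all its DIFF percentiles were above its PROLIF ones. The fold enrichments of the states overlapped at Snhg12 and Snhg20. Their log2 changes of 0.44 ± 0.13 and 0.55 ± 0.18 (SE) did not pass the test (limma adjusted p = 0.0628 and 0.078). H19, an imprinted growth-regulating transcript, had no peak in any library.

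In the list drawn up for microRNA hosts, 5 of 8 members had a peak in all 6 libraries, against 12.2% of all members. Whether Mirt1 on this list hosts a microRNA was not checked. Mir17hg, host of a microRNA cluster known for driving proliferation, had percentiles of 95.3, 90.0 and 93.2 in PROLIF and 93.7, 93.3 and 92.5 in DIFF, and its log2 change was 0.14 ± 0.14 (SE; limma adjusted p = 0.588). Its peak was wide, and the summit lay at -2079 bp from the annotated start. C130071C03Rik, host of one of the brain microRNA miR-9 genes, had 95.2, 86.8 and 83.6 in PROLIF and 90.5, 86.9 and 94.0 in DIFF. Mir124-2hg, host of a neuronal miR-124 gene, had 78.7, 83.5 and 82.6 in PROLIF and 84.2, 88.1 and 90.8 in DIFF. These DIFF percentiles were all higher than the PROLIF ones, but the fold enrichments overlapped (7.03, 7.38 and 8.25 in PROLIF, 7.84 and above in DIFF). The log2 change of 0.35 ± 0.17 (SE) did not pass the test (limma adjusted p = 0.236). Mir9-3hg ran from 33.6 to 42.9 in PROLIF and from 48.0 to 69.9 in DIFF. The fold enrichments of the same peaks overlapped, at 3.06, 3.33 and 3.75 in PROLIF and 3.25, 3.16 and 3.47 in DIFF. In the region at its start that was fitted, PROLIF 1 and 4 had weaker peaks of 2.74 and 2.63, and the log2 change was 0.30 ± 0.15 (SE; limma adjusted p = 0.221). Mir155hg, better known from immune cells, ranged from 70.3 to 82.5 over the 6 libraries, Mir124a-1hg had a peak in 4 libraries and Mirt1 in 3, while Mir142hg, host of a blood cell microRNA, had none.

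Nuclear and neural lincRNAs were more mixed. A peak in all 6 libraries was found at 2 of 5 members of the nuclear list and 1 of 3 of the neural list. Over all members the share was 12.2%. Of 20 symbols on the neural list only 3 met the rule for members, and Lncpint was the 1 with a peak in all 6 libraries. Neat1, the scaffold of paraspeckles, had percentiles of 89.6, 85.3 and 89.7 in PROLIF and 45.7, 88.9 and 64.4 in DIFF, with the low DIFF values in libraries 1 and 4. Its region-level log2 change was -0.06 ± 0.13 (SE; limma adjusted p = 0.815), and this region also held stronger peaks over 1 kb from the start. Malat1, an abundant RNA of nuclear speckles, had 66.6, 66.7 and 64.6 in PROLIF and 72.2, 78.9 and 85.1 in DIFF. Its fold enrichments overlapped, DIFF 1 having the lowest at 4.72, with a log2 change of 0.09 ± 0.16 (SE; limma adjusted p = 0.779). Miat, a nuclear RNA of neural and cardiac cells, was absent from PROLIF 4, ranked 23.0 and 32.2 in PROLIF 1 and 2, and ranked 62.0, 62.8 and 76.6 in DIFF. Meg3, an imprinted growth-restraining RNA, had a peak in PROLIF 1 (51.7) and PROLIF 4 (31.0) and in no DIFF library. Rmst, which is known to act with SOX2 in neurogenesis, had percentiles of 49.5, 37.5 and 46.8 in PROLIF and a peak of 29.3 in DIFF 1, with none in DIFF 2 and 4. Lncpint, a p53-induced RNA, ranged from 58.5 to 63.6 in PROLIF and from 70.4 to 75.5 in DIFF, while the fold enrichments of these peaks overlapped. The strongest peak lay in 1 region in PROLIF 1, DIFF 2 and DIFF 4 and in another in the other libraries. Lncpint percentiles therefore mix 2 regions and do not compare the states at 1 start. Its 2 regions present in all 6 libraries had log2 changes of 0.29 ± 0.23 and 0.04 ± 0.14 (SE; limma adjusted p = 0.470 and 0.893). Paupar, beside Pax6, and Mirg, of the imprinted cluster that holds Meg3, had no peak in any library. Since Miat, Meg3 and Rmst lacked a peak in at least 1 library, no limma value was fitted for them.

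Of 4 lincRNAs listed from other lineages, 2 had no peak in any library and 1 had one in all 6, against 74.5% and 12.2% of all members. Hotair of the HoxC cluster and Ifngas1 beside Ifng had no peak, Bvht, a cardiac lincRNA, had one in DIFF 4 alone (44.0), and Carmn, known from muscle lineages, had one in all 6 libraries (69.8 to 86.8). The Carmn summit lay at -1024 bp from the annotated start.

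**Figure D4:**
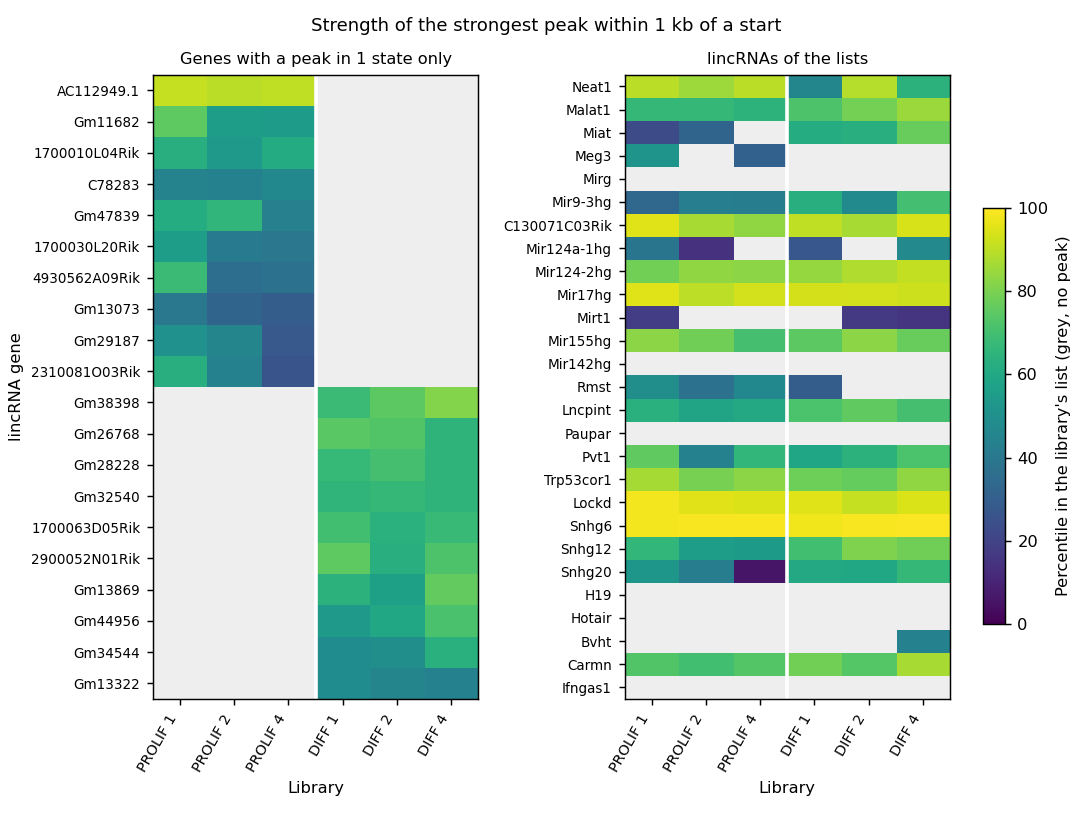
Within-list percentile of the strongest peak within 1 kb of a start (colour; grey, no peak) for lincRNA genes (rows) in the 6 libraries (columns), with the genes occupied in 1 state only on the left and the members of the lists on the right. Snhg6, Lockd and Mir17hg are at 89.95 or above in every library, while Rmst and Meg3 have most of their peaks in PROLIF.

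The number of occupied lincRNA genes did not separate the states. It averaged 823 ± 111 in PROLIF and 876 ± 64.0 in DIFF (SD, n = 3 each), a difference of 53.7 with an exact permutation p of 0.5, where 3 against 3 libraries cannot give less than 0.1. The share of each list within 1 kb of a lincRNA start was 1.29 ± 0.0300% and 1.24 ± 0.0372% (exact permutation p = 0.3). The median percentile of these peaks was 57.9 ± 1.79 and 59.1 ± 0.290 (exact permutation p = 0.4), and their median width was 424 ± 38.0 and 399 ± 20.8 bp (exact permutation p = 0.5). The values of the states overlapped in the gene number, and the difference was 116, 9.33 and 16.8 genes without PROLIF 1, PROLIF 4 and DIFF 4, and between 35.8 and 74.3 without each of the other libraries. With the 20000 strongest peaks of each list the difference in gene number was -15.7 and that in width 28 bp, and with lists of equal length the share differed by 0.0178 points, each opposite in direction to the value above.

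At the level of single genes, 18 lincRNA genes had a peak in every PROLIF and no DIFF library, and 35 in every DIFF and no PROLIF library. This was 0.385% and 0.749% of the 4675 members, against 0.199% and 0.367% of all 51229 genes of any type. Most of these peaks were weak: the median over genes of the percentile was 40.3 for PROLIF-only and 40.2 for DIFF-only genes, against 74.1 for genes of all 6 libraries, and the median width was 214 and 278 bp against 604 bp. Leaving out a library relaxes the rule for state-only genes, so their counts can then only stay or rise. PROLIF-only genes numbered 22, 28, 38 and 32 without PROLIF 1, PROLIF 2, PROLIF 4 and DIFF 4. DIFF-only genes numbered 76, 57 and 39 without PROLIF 1, DIFF 1 and DIFF 4. With lists of equal length 28 genes were PROLIF-only, and with the 20000 strongest peaks 29 were PROLIF-only and 17 DIFF-only, the opposite order. At 2 of the 18 and 5 of the 35 genes the merged region also held a peak of the other state beyond 1 kb. Among those named below, such peaks came from 3 libraries at 1700063D05Rik, so there the call rested on peak extent or position. They came from 1 library each at AC112949.1, Gm26768 and Gm34544.

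AC112949.1 on chromosome 17 was the strongest PROLIF-only gene, with percentiles of 91.3, 89.5 and 90.4 in PROLIF 1, 2 and 4. Its summit lay 1299 bp downstream of the start and the region also held a peak in 1 DIFF library. Gm11682 on chromosome 11, 145385 bp from the nearest coding start (Map2k6), had 75.1, 56.1 and 55.1 in PROLIF and no peak in DIFF. Its summit lay 254 bp downstream of the start, in the window with the AP-1 match printed above. 1700010L04Rik on chromosome 7 (54.0 to 63.2) and C78283 on chromosome 5 (44.1 to 46.8) followed. The other PROLIF-only genes named by the rule, Gm47839, 1700030L20Rik, 4930562A09Rik, Gm13073, Gm29187 and 2310081O03Rik, had percentiles between 26.0 and 68.2.

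Gm38398 on chromosome 9, 48246 bp from Hmgn3, was the strongest DIFF-only gene. It had percentiles of 68.1, 74.7 and 81.6 in DIFF 1, 2 and 4 and fold enrichments between 7.34 and 10.4, with the summit at -255 bp from the start. 2900052N01Rik, also on chromosome 9, had 75.1, 63.3 and 72.2 with the summit 15 bp from its start. Gm32540 (65.5, 66.5 and 64.9) and Gm44956 (53.8, 60.05 and 71.1) both lie on chromosome 8 and both have Irs2, a gene of insulin signalling, as the nearest coding gene, at 142272 and 37644 bp. At Gm26768 and Gm34544 the region also held a peak of 1 PROLIF library farther from the start. For 1700063D05Rik the region held peaks of all 6 libraries, with a log2 change of 0.75 ± 0.14 (SE; limma adjusted p = 0.00843). Gm28228 (64.9 to 70.7), Gm13869 (56.8 to 75.8) and Gm13322 (43.9 to 48.8) complete the genes named by the rule.

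The quantitative test was made on regions present in all 6 libraries, with limma on quantile-normalised log2 fold enrichment of all 39088 such regions. Of the 598 lincRNA regions, 39 were higher in DIFF (6.52%) and 47 were higher in PROLIF (7.86%) at an adjusted p of at most 0.05. Over all regions tested the shares were 5.97% and 7.78%, so lincRNA regions changed about as often as the rest in each direction. The count higher in DIFF fell to 24, 24 and 18 without DIFF 1, 2 and 4, and the count higher in PROLIF to 28, 27, 20 and 27 without PROLIF 1, PROLIF 4, DIFF 2 and DIFF 4, in fits with fewer libraries. The median log2 change, DIFF minus PROLIF, was 0.003 over the lincRNA regions and 0.03 over all regions.

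Accessibility fell most in DIFF at Gm49470, on chromosome 15 and 405213 bp from the nearest coding start. Its fold enrichment was 14.9, 11.4 and 12.1 in PROLIF 1, 2 and 4 and 3.24, 4.30 and 2.42 in DIFF 1, 2 and 4, and the groups did not overlap. The log2 change was -1.92 ± 0.17 (SE; limma adjusted p = 0.000549), with the summit at -50 bp from the start, in the CG-free window shown above. 4933405E24Rik on chromosome 11, 36382 bp from the cytokine gene Csf2, went from 16.9, 16.1 and 10.8 to 5.83, 5.31 and 4.99 (log2 change -1.38 ± 0.16; limma adjusted p = 0.00111), with a summit at -1526 bp. AC115692.1 and AC115692.3 share 1 region on chromosome 18, with 16.6, 12.8 and 11.8 in PROLIF and 5.61, 5.81 and 6.42 in DIFF (log2 change -1.15 ± 0.12). Gm4593 (chromosome 7), Gm10165 (chromosome 12), AC122818.4 (chromosome 17), 1110002O04Rik (chromosome 1), Gm47430 (chromosome 9) and A530053M12Rik (chromosome 1) fell by 1.14, 1.03, 1.03, 1.02, 1.01 and 0.84 on the log2 scale. All 10 genes had lower values in every DIFF than in every PROLIF library. They were chosen by the size of this change in the same libraries, so the separation adds no further support.

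Accessibility rose most at Gm44934, on chromosome 7 and 31978 bp from Thap12. Its fold enrichment was 5.29, 4.82 and 3.38 in PROLIF and 9.59, 13.6 and 9.91 in DIFF, a log2 change of 1.39 ± 0.15 (SE; limma adjusted p = 0.000977). The summit lay at -22 bp from the start. Gm37591 on chromosome 1 went from 6.55, 6.03 and 5.30 to 11.96, 14.6 and 14.5 (log2 change 1.25 ± 0.11; limma adjusted p = 0.000581), and its nearest coding gene, Prim2, lay 454320 bp away. Gm12532 on chromosome 3, 49680 bp from Il21, went from 6.55, 7.87 and 5.46 to 11.3, 15.0 and 14.4 (log2 change 1.08 ± 0.16). Gm2109 (1.02), Gm12973 (0.99), Gm35394 (0.95), Gm16013 (0.95), Gm34312 (0.89), Gm49750 (0.89) and 1700025H01Rik (0.88) completed the set on the log2 scale. Here too every DIFF value was above every PROLIF value, in genes chosen by the size of this change.

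**Figure D5:**
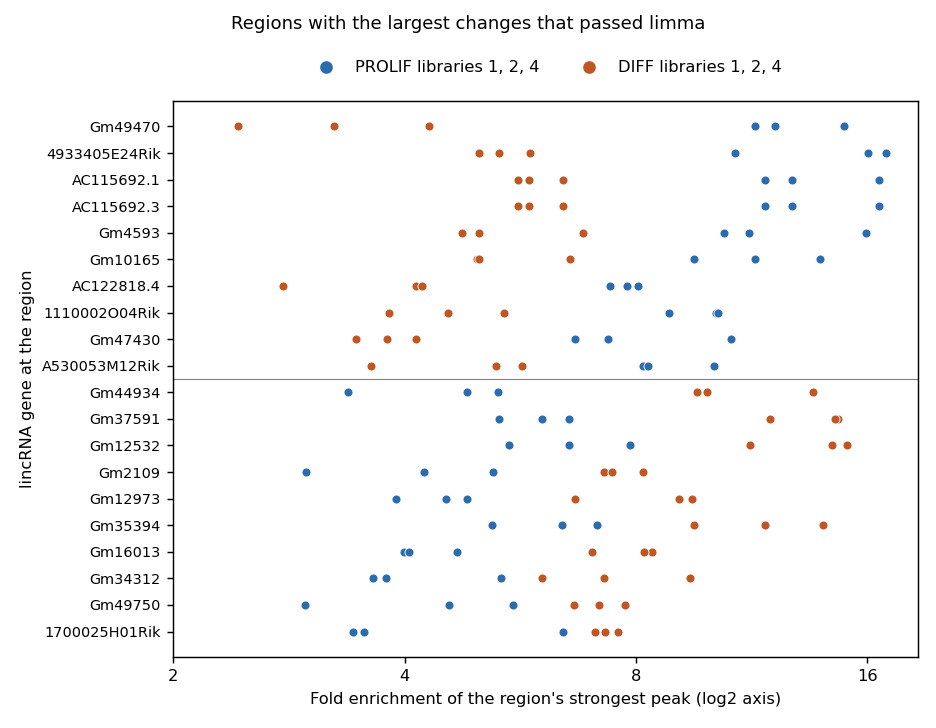
Fold enrichment over local background of the region's strongest peak (horizontal log2 axis) in each library, for the 10 lincRNA genes with the largest falls (top) and the 10 with the largest rises (bottom) among those past the limma threshold. PROLIF and DIFF points do not overlap in any row, from 11.4 or more against 4.30 or less at Gm49470 to 6.42 or less against 7.08 or more at 1700025H01Rik. Rows were chosen by the size of the change in the same libraries, so this separation adds no further support.

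Genes of the lists gave 2 calls. C130071C03Rik had 5 regions in all 6 libraries, and 1 of them, with its summit 949 bp downstream of a start, was lower in DIFF (8.87, 7.59 and 7.30 in PROLIF and 5.55, 5.49 and 5.39 in DIFF; log2 change -0.46 ± 0.12, limma adjusted p = 0.0342). Its strongest region, at the first start, changed by 0.04 ± 0.13 (SE; limma adjusted p = 0.877). Trp53cor1 had 3 such regions, of which 1 was higher in DIFF (7.52, 5.58 and 4.42 in PROLIF and 7.95, 8.09 and 6.72 in DIFF; log2 change 0.49 ± 0.14, limma adjusted p = 0.0468), and there the raw fold enrichments of the states overlapped. Both calls were lost under 7 of 10 alternative settings.

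Regions that changed were poor in CpG. Of the 144 lincRNA regions with a CpG ratio of at least 0.6 at the summit, 5 passed the test in either direction (3.47%), and of the 454 with a lower ratio 81 did (17.8%). Over all regions the shares were 3.18% of 11732 and 18.3% of 27356, so lincRNA regions followed the background within each range. Distance to the start was alike, with a median of 222 bp for regions higher in PROLIF, 234 bp for regions higher in DIFF and 228.5 bp for regions not called.

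The motifs near the summits differed between the directions. The E-box CAGCTG was present in 55.3% of the 47 lincRNA regions higher in PROLIF and 20.5% of the 39 higher in DIFF, and over all regions in 45.3% and 22.2%. The AP-1 motif was present in 5 of the 47 and 0 of the 39 regions, and over all regions in 19.8% and 3.34%. The SOX motif was present in 7 of the 47 and 2 of the 39 regions, and over all regions in 6.71% and 4.41%. The NFI motif went the other way, with 27.7% and 46.2%, and over all regions 27.8% and 34.6%, as did CCAAT with 29.8% and 48.7%, over all regions 30.8% and 35.8%. The letters of CCAAT, read on the other strand, and of TTGGCA overlap in ATTGGCA. Regions occupied in 1 state only showed AP-1 in 6 of 25 PROLIF-only lincRNA regions and 0 of 35 DIFF-only regions, and over all such regions in 31.7% and 4.07%. The E-box did not keep its direction there, with 6 of 25 and 11 of 35 lincRNA regions, but 38.9% and 20.0% over all such regions. The NFI motif was present in 3 and 10 of these lincRNA regions, CCAAT in 10 and 16, and SOX in 2 and 3. Over all such regions the shares were 25.8% and 38.8%, 33.8% and 36.8%, and 7.06% and 5.01%. Of all 116783 regions, 24.7% held the E-box, 7.47% AP-1, 4.91% the SOX motif, 23.4% the NFI motif and 34.4% CCAAT. These shares are descriptions of letters in a window of 301 bases, and no binding was measured.

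Changes at lincRNA regions and at the nearest coding start were nearly unrelated. The correlation of the log2 changes across regions was 0.0194 for 51 lincRNA regions under 10 kb from the nearest coding start region, 0.0799 for 177 at 10 to 50 kb, 0.0775 for 232 at 50 to 200 kb and 0.0645 for 138 beyond 200 kb. For distal regions in the same ranges it ran from -0.0491 to 0.0404. All of these regions come from the same 6 libraries, and regions are not independent replicates.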

How the data were processed

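ATAC-seq peak lists of 6 libraries were analysed, 3 PROLIF and 3 DIFF, grouped by the state and replicate number in the labels. The authors trimmed reads with Cutadapt and Trimmomatic, aligned them with Bowtie2 to GRCm38 (mm10) and flagged duplicates using Picard. The authors ran MACS2 on every library separately for narrow peaks, with the model turned off and the false discovery rate set to 0.05. Versions and any shift or blacklist are not given in the sources used here. Each deposited list gives a score, which is 10 times −log10 q, rounded down, a fold enrichment as a ratio to local background, and −log10 p and −log10 q values. Absence from a list means only that the caller's threshold was not met, and read depth is unknown.

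Starts came from GENCODE M21. Members and gene lists were chosen with earlier results of these data known. Named genes were the 8 strongest genes of all 6 libraries, up to 10 of each state-only set by lowest percentile, up to 10 per direction of limma by size of change, and every member of 5 lists. Peaks of all lists sharing at least 1 bp were merged into regions. Gene counts and medians were compared over libraries by exact permutation tests, two-sided. Fold enrichment of each region's strongest peak was compared with limma 3.58.1 (R 4.3.3) after log2 and quantile normalisation by the present work, without a block, with Benjamini-Hochberg adjustment over all regions of all 6 libraries. Counting and fitting steps were tested on simulated data. CpG, repeat masking and motifs were read from the RefSeq GRCm38.p6 genome with pysam 0.24.0. Motif matches carry no test. Alternatives were a summit window, a 500 bp window, q of 0.01, lists of equal length, the 20000 strongest peaks, other coding starts, genes of 2 or more exons, leaving out chromosome 10, other scales, a replicate block and leaving out each library. The result for 1 gene of the marker lists is not reported here.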

Additional observations from a re-analysis of the deposited data

How the results depend on the processing

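The direction of the occupancy gap between lincRNA and coding genes was kept in every alternative run, and without any 1 library it was -47.1 to -46.7 points (exact sign-flip p = 0.0625, the smallest that 5 libraries allow). With lists of equal length the difference in the share of the list was 0.0178 points and 28 genes were PROLIF-only. With the 20000 strongest peaks the difference in gene number was -15.7 and in width 28 bp, 29 genes were PROLIF-only and 17 DIFF-only. The cause was not tested. Without 1 library at a time, 20 to 38 genes were PROLIF-only and 39 to 76 DIFF-only, counts that this step can only keep or raise. With fewer libraries in each fit, limma then called 18 to 30 lincRNA regions higher in DIFF and 20 to 36 higher in PROLIF. The states' differences in gene number, share, percentile and width kept their direction in the other alternatives. For named genes the number of libraries with a peak stayed the same in 376 comparisons with an alternative and moved in 58. With the summit within 1 kb, Neat1 had a peak in 2 libraries, Malat1 in 5, Mir17hg in 3 and Carmn in 1. AC112949.1, Gm26768, 1700063D05Rik and Gm13869 then had none. With the 20000 strongest peaks Pvt1, Mir9-3hg and Snhg20 had none and Lncpint had a peak in 1 library. On the logit of the percentile limma called 24 and 27. Of the 20 named genes with the largest changes and the 3 other named genes with a called region, 21 kept direction and call in at least 8 of their alternatives, and C130071C03Rik and Trp53cor1 kept the call in 3 of 10. No change reversed.

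Replicate numbers 1, 2 and 4 occur in both states, but the deviations of same-numbered libraries from their state means correlated at 0.0723, 0.118 and 0.103, so the numbers were not treated as pairs. Each library correlated best with its own number, which is a hint from the data. With a replicate block, limma called 41 lincRNA regions higher in DIFF and 48 higher in PROLIF, no named gene lost its call, and counting each pair by number alone gave 74 genes lost and 124 gained in at least 2 of 3 pairs and the reverse in none.

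The lists set the limits. A weak peak can be missing from a shorter list, and the fold enrichments come from single peak summits, not from read counts over a shared region.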
